A study of Mus musculus with 8 samples.

Results

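Ribosomes are built in the nucleolus, where RNA polymerase I transcribes the long precursor of the ribosomal RNAs. Small nucleolar ribonucleoproteins (snoRNPs) guide the chemical modification of that precursor, and separate sets of assembly factors fold and cut it into the small and the large ribosomal subunit. The supply of these factors sets how fast a growing cell can enlarge its protein synthesis, and in lymphocytes the pathway is known as a target of MYC. The genes described here are 43 genes of ribosome biogenesis and the nucleolus, listed by name with earlier results of these data known. Each gene was read from the probe set that carries its symbol alone and has the highest mean over all arrays. A probe set is the group of array probes whose signals are summarised to 1 value. No probe set carries Mrto4 or Npm3 alone in the annotation used here, so these genes were not analysed here. The other 41 genes all passed the filter on dim probe sets, and they are 41 of the 10547 genes tested.

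The cells were germinal centre B cells of C57BL/6 mice, taken from lymph nodes 12 days after subcutaneous immunization with the hapten-carrier antigen NP-KLH, mixed with alum. In germinal centres, B cells divide, mutate their antibody genes and are selected, and the structure is divided into a light and a dark zone. Sorting for B220 and CD95 and then for CXCR4 and CD83 gave 4 light zone and 4 dark zone samples, each hybridised to 1 Affymetrix mouse expression array. The labels call the samples biological replicates, and whether each came from 1 mouse or from several is not given in the sources used here. The gate names CXCR4 high and CD83 low for the light zone, whereas Cd83 mRNA was higher in the arrays titled light zone (7158.3 to 7631.3 against 1362.6 to 1624.2) and Cxcr4 mRNA in those titled dark zone (1418.5 to 1677.1 against 758.1 to 853.9). All groups below are those of the titles.

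Values are intensities on a linear scale, normalized by the authors so that all arrays have nearly the same distribution, with array medians of 27.3 to 28.1. Differences are means of log2 intensity, dark zone minus light zone, so a negative difference means a higher level in the light zone. A gene was called where its limma p, adjusted by the Benjamini-Hochberg method over all 10547 genes, was under 0.05. B cell and germinal centre markers were bright in both zones, with 10 of 10 measured markers above the filter and a mean log2 level 0.14 higher in the dark zone through Gcsam (1.48), while 6 of the 10 were lower there. T cell markers (10 measured, 4 above the filter) summed to 324.3 to 347.3 in light zone and 331.1 to 363.3 in dark zone arrays, and erythroid markers (4 measured, 0 above the filter) to 56.6 to 61.6 and 59.3 to 67.8. The sum of 13 myeloid markers was 262.7 to 324.0 in light zone and 382.9 to 1110.1 in dark zone arrays, mostly through Lyz2, and 3 of the 13 were above the filter. Of 9 plasma cell markers 8 were above the filter, with sums of 16632.4 to 18448.5 in light zone arrays and 18163.6 to 19245.4 in dark zone arrays. Their mean log2 level was 0.55 lower in the dark zone, most strongly in Irf4 (-2.03) and Prdm1 (-1.37). Of the 9, 7 were lower there, while Jchain (0.15) and Mzb1 (0.29) were higher. Of 10 stromal and follicular dendritic cell markers 6 were above the filter. The sum of the 10 was 4407.0 to 4760.3 in light zone arrays and 1684.6 to 2040.7 in dark zone arrays, carried by Cr2 and Fcer2a, which B cells also express. Of the 10, 6 were lower in the dark zone, while Mfge8 (0.05), Pdpn (0.18), Col1a1 (0.03) and Col3a1 (0.04) were higher. The mean log2 levels of the B cell, myeloid, plasma cell and stromal lists differed between the zones (two-sided exact permutation p = 0.0286 each, the smallest that 70 arrangements can give; adjusted p = 0.0429 over 6 lists), and their part in the results below was not tested. In bulk RNA of this kind, fewer cells of a type and less RNA per cell cannot be told apart.

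Ribosome biogenesis genes were mostly higher in the light zone, by modest amounts. Of the 41 tested genes, 34 (82.9%) were called higher in the light zone, where 24.8% of all tested genes were. None was called higher in the dark zone by limma, 0 also at an unadjusted p under 0.05, while 19.1% of all tested genes were called in that direction. The other 7 did not pass. The median difference over the 41 genes was -0.36, beside -0.01 over all tested genes, and single differences ran from -1.21 for Gnl3 to 0.17 for Ftsj3. Called differences of 1.5-fold or more were found in 7 genes (17.1%, against 6.19% of all tested genes): Gnl3, Rrp1b, Noc2l, Rrp12, Nhp2, Ddx21 and Tcof1. Gnl3 alone among the 41 passed 2-fold, with Rrp1b at the edge of it, as did 1.96% of all tested genes in that direction. In 32 of the 41 genes (78%), all 4 light zone arrays lay above all 4 dark zone arrays, a pattern seen in 23.2% of all tested genes. The reverse pattern, with all dark zone arrays on top, was seen in 0 of the 41 genes and in 18.1% of all tested genes. Calls in either direction made up 43.9% of all tested genes.

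**Figure D1:**
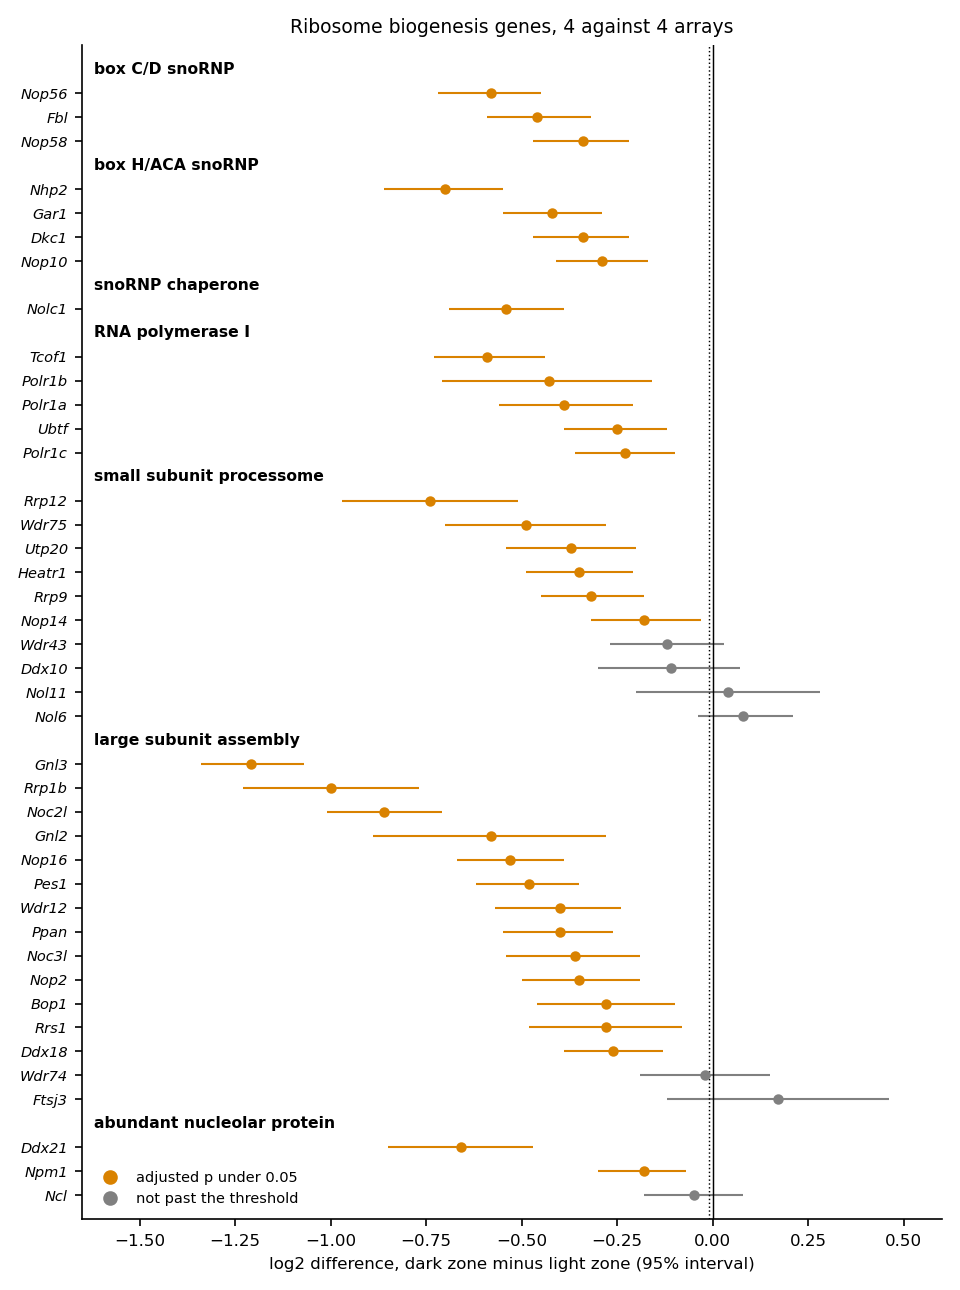
Difference between dark zone and light zone on the log2 scale (horizontal axis) for the 41 tested genes, grouped by role, with 95% intervals from the limma fit; orange points passed an adjusted p of 0.05, the solid line marks 0 and the dotted line the median of all tested genes (-0.01). Of the 41 genes, 38 lie left of 0, and Gnl3 lies farthest left at -1.21.

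The shift was shared by the arrays of a zone. After each gene was set relative to its own mean over the 8 arrays, the median over the 41 genes was 0.17 to 0.19 in the 4 light zone arrays and -0.20 to -0.16 in the 4 dark zone arrays, on the log2 scale. Between 36 and 38 of the genes were above their own mean in each light zone array, and between 3 and 7 in each dark zone array. The spread within a zone was like that of other genes, with a median SD of 0.09 for these genes and 0.10 for all tested genes, and a median standard error (SE) of the difference of 0.07 for both.

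**Figure D2:**
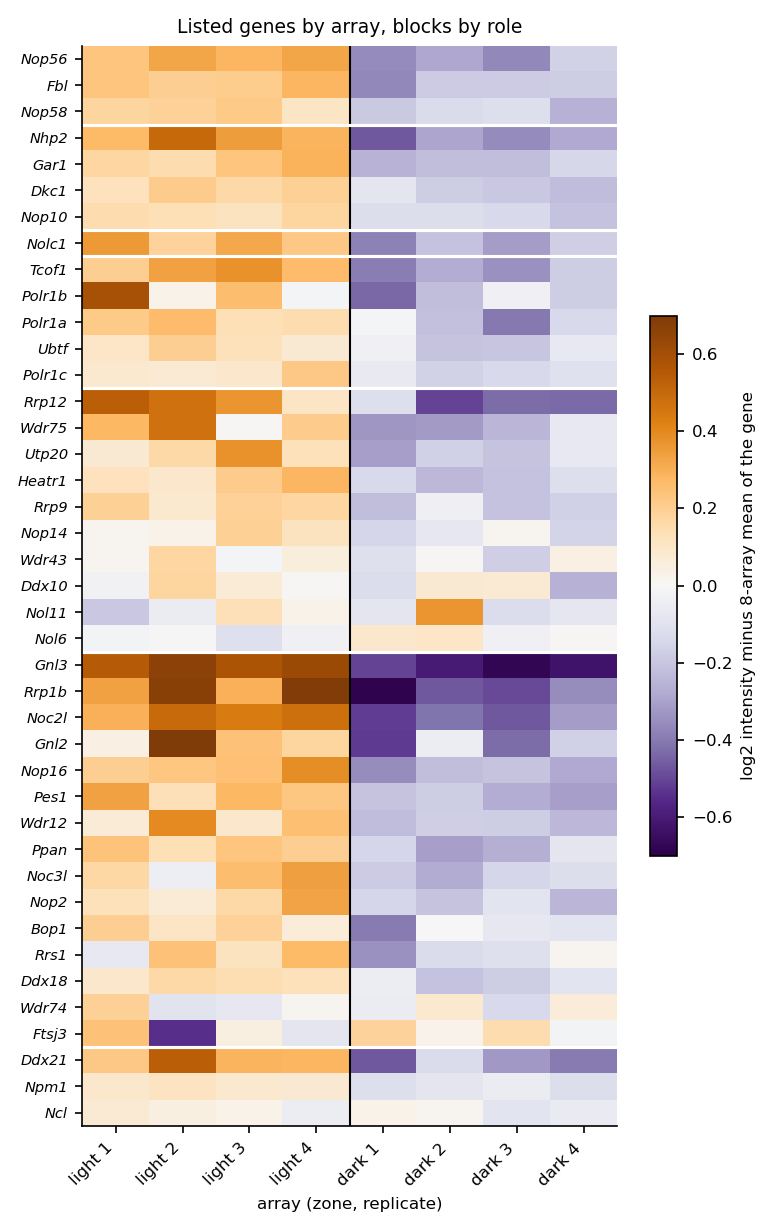
Log2 intensity of each of the 41 genes (rows, in blocks by role) in each array (columns), relative to the gene's mean over all 8 arrays; orange is above and purple below that mean. The 4 light zone columns are mostly orange and the 4 dark zone columns mostly purple, with most exceptions in Nol6, Nol11, Wdr43, Wdr74, Ddx10, Ftsj3 and Ncl, and single ones in other genes such as Rrs1.

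Since the genes moved together, their promoters were searched for 4 motifs, in windows from 250 bases before to 50 bases after the annotated start (RefSeq, build GRCm38.p6). Windows were found for 35 of the 43 genes and for 27025 genes in all, and each motif was sought on both strands; a gene counted if any of its windows held the motif. CACGTG, the E-box bound by MYC and related factors, was in 5 of the 35 genes (14.3%), against 8.09% of all genes and 12% of the tested genes that have a window. The ETS-type motif CCGGAAG was in 11 of 35 (31.4%), against 9.93% of all genes and 21.6% of tested genes. TATAAA was in 4 (11.4%), against 15.7% of all genes and 8.38% of tested genes, and the NRF1-type palindrome in 0, against 1.07% and 2.53%. In the wider set of ribosome biogenesis genes described below, CACGTG was in 19.4% and CCGGAAG in 41.9% of genes with a window. For cytosolic and mitochondrial ribosomal protein genes the shares were 9.3% and 7.46% with CACGTG, and 48.8% and 37.3% with CCGGAAG. The 5 listed genes with an E-box were Nop2 and Nol11, before the start, and Pes1, Wdr43 and Utp20, after it. They include 3 of the 27 genes with a window that were called higher in the light zone (11.1%). The other 2, Nol11 and Wdr43, are among the 6 tested genes with a window that did not pass (33.3%). The 100 bases before the start are shown for both genes with an E-box there, and for the 3 genes with the largest differences among those with a single window. Sequences run 5′ to 3′ on the gene's strand, and capitals mark CACGTG and CCGGAAG or its reverse complement.
Nop2: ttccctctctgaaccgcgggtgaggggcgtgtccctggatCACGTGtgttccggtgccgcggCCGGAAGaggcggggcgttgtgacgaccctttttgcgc
Nol11: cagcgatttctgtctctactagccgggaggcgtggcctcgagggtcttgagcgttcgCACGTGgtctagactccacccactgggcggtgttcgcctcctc
Gnl3: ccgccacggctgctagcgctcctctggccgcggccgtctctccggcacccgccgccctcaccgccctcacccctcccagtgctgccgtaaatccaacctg
Nhp2: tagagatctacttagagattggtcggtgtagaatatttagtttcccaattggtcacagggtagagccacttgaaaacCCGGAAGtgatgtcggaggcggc
Ddx21: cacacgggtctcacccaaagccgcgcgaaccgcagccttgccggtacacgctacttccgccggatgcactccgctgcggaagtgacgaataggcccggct
The Nop2 stretch is chr6:125131783-125131882 (plus strand), the Nol11 stretch chr11:107189382-107189481 (minus strand) and the Gnl3 stretch chr14:31019132-31019231 (minus strand). The Nhp2 stretch is chr11:51619673-51619772 (plus strand) and the Ddx21 stretch chr10:62602299-62602398 (minus strand). The E-box begins 60 bases before the start in Nop2, whose difference was -0.35, and 43 bases before it in Nol11, whose difference was 0.04. Gnl3, with the largest difference, has neither motif in the stretch shown. A match is a description of the letters and says nothing on binding. Myc mRNA itself read 653.8 to 946.2 in light zone arrays and 148.3 to 225.7 in dark zone arrays, a difference of -2.10, and its part in the values of these genes was not tested.

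The listed genes of RNA polymerase I transcription were all called higher in the light zone, 5 of 5, with a median of -0.39. Tcof1 encodes treacle, a nucleolar phosphoprotein needed for ribosomal DNA transcription. It read 1083.9, 1190.8, 1219.6 and 1133.6 in light zone replicates 1 to 4 and 719.3, 780.2, 744.7 and 833.9 in dark zone replicates 1 to 4. The zones did not overlap, and the means were 1156.9 ± 60.4 and 769.5 ± 49.7 (SD, n = 4 per zone), a difference of -0.59 (SE 0.07, limma adjusted p = 2.1e-05). Polr1a, the largest subunit of the polymerase, read 131.7, 136.6, 124.8 and 126.0 in the light zone and 112.6, 97.7, 85.8 and 103.0 in the dark zone. Its lowest light zone array stood above its highest dark zone array, at a difference of -0.39 (SE 0.08, limma adjusted p = 0.0022). Polr1b, the second largest subunit, was dim and more variable, with 93.1, 63.2, 74.3 and 61.3 against 45.7, 53.2, 60.7 and 54.8. Light zone replicate 1 was the high array, the zones came close but did not overlap, and the difference was -0.43 (SE 0.13, limma adjusted p = 0.016). Polr1c, a subunit shared with RNA polymerase III, differed least (-0.23, SE 0.06). Ubtf encodes UBF, which binds ribosomal DNA, and its brightest probe set was at -0.25 (SE 0.06). A dimmer probe set of Ubtf went the other way, at 0.21 (SE 0.07), and the call was lost when both were averaged (-0.02, limma adjusted p = 0.74).

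The box C/D snoRNP carries out methylation of ribosomal RNA. The mRNA of all 3 of its measured core protein genes was called higher in the light zone. The scaffold protein gene Nop56 read 1912.1, 2038.6, 1975.1 and 2037.8 in light zone arrays and 1266.6, 1332.3, 1265.1 and 1456.0 in dark zone arrays. The groups stood well apart, at 1990.9 ± 60.4 and 1330.0 ± 89.7 (SD, n = 4 per zone), a difference of -0.58 (SE 0.06, limma adjusted p = 1.6e-05). Fbl, the methyltransferase fibrillarin, read 2626.8, 2564.8, 2574.2 and 2713.4 in the light zone and 1733.8, 1965.1, 1968.4 and 1972.3 in the dark zone. Dark zone replicate 1 was low, the other 3 dark zone arrays lay close together, and no dark zone array reached the light zone; the difference was -0.46 (SE 0.06, limma adjusted p = 9.5e-05). Nop58, the partner of Nop56, read 2347.6, 2361.3, 2411.0 and 2234.8 against 1822.2, 1899.5, 1916.4 and 1731.6. Its arrays did not overlap, and its difference of -0.34 (SE 0.06, limma adjusted p = 5.4e-04) was smaller than that of Nop56, though this gap was not tested.

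The box H/ACA snoRNP converts uridine to pseudouridine, and its core proteins are also part of telomerase. The mRNA of 4 of the 4 core protein genes of the snoRNP was called higher in the light zone. Nhp2 read 2129.1, 2489.8, 2241.8 and 2150.5 in light zone arrays and 1274.1, 1436.4, 1373.4 and 1449.1 in dark zone arrays. The zones were far apart, at 2252.8 ± 165.4 and 1383.2 ± 79.9 (SD, n = 4 per zone), a difference of -0.70 (SE 0.07, limma adjusted p = 7.5e-06) or 1.63-fold, and a second probe set of the gene gave -0.81. Gar1 read 1165.8, 1146.0, 1212.2 and 1266.3 in the light zone and 866.3, 885.6, 885.0 and 935.3 in the dark zone, with no overlap and a difference of -0.42 (SE 0.06, limma adjusted p = 1.1e-04). Dkc1, the pseudouridine synthase dyskerin, read 2050.0, 2172.4, 2099.9 and 2147.6 against 1774.6, 1659.2, 1640.7 and 1607.1. It also separated the zones, at -0.34 (SE 0.06, limma adjusted p = 4.7e-04), and its 2 further probe sets gave -0.26 and -0.76. Nop10, the smallest protein of the particle, was at -0.29 (SE 0.05) from the brightest probe set and at -0.48 with its probe sets averaged. Nolc1, a phosphoprotein that chaperones snoRNPs in the nucleolus and Cajal bodies, read 721.3, 638.6, 701.9 and 657.6 in the light zone and 432.5, 486.1, 453.1 and 498.8 in the dark zone. The arrays did not overlap, and the difference was -0.54 (SE 0.07, limma adjusted p = 5.0e-05), or -0.33 with the probe sets averaged.

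Genes of the small subunit processome, the large particle that assembles the small subunit around the U3 snoRNA, divided into those that were higher in the light zone and those that did not pass. Of 10 tested, 6 were called higher in the light zone and 4 were not called, with a median of -0.25. Rrp12, which acts late in the export of the small subunit precursor, read 102.7, 98.5, 91.6 and 76.2 in the light zone and 65.6, 49.9, 52.6 and 52.4 in the dark zone. It was dim, yet its zones did not overlap, and the difference of -0.74 (SE 0.11, limma adjusted p = 1.4e-04) was 1.67-fold. Wdr75 read 574.8, 659.8, 476.6 and 549.9 in light zone arrays and 376.6, 379.6, 400.6 and 451.8 in dark zone arrays. Light zone replicate 2 was its highest array and light zone replicate 3 its lowest of that zone, which still lay above all dark zone arrays; the difference was -0.49 (SE 0.10, limma adjusted p = 0.0015). Utp20, a large scaffold protein, read 335.5, 354.7, 411.1 and 346.3 against 255.5, 282.8, 275.4 and 302.8, without overlap and at a difference of -0.37 (SE 0.08, limma adjusted p = 0.0022). Heatr1 (-0.35, SE 0.06) and the U3-binding protein gene Rrp9 (-0.32, SE 0.06) also separated the zones. Nop14 was called at -0.18 (SE 0.07, limma adjusted p = 0.045), but its arrays overlapped. The Nop14 call was lost in each fit that left out 1 of light zone replicates 3 and 4 and dark zone replicates 1, 2 and 4 (-0.18 to -0.14, limma adjusted p = 0.074 to 0.13). It was also lost after a repeated quantile normalization (-0.15, limma adjusted p = 0.094), with an intensity trend (limma adjusted p = 0.061) and without the filter (limma adjusted p = 0.067).

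The 4 processome genes that did not pass had values near each other in both zones. Nol6 read 153.0, 154.0, 144.2 and 151.8 in the light zone and 164.9, 166.7, 151.7 and 156.1 in the dark zone. The arrays overlapped, and the difference was 0.08 with a 95% interval of -0.04 to 0.21 (limma adjusted p = 0.27). Nol11 read 245.0, 270.1, 307.5 and 285.8 and 263.6, 361.0, 256.7 and 264.9. Dark zone replicate 2 was its highest array and the other 7 overlapped, so that the difference of 0.04 (interval -0.20 to 0.28, limma adjusted p = 0.8) became -0.08 without that array and -0.02 without light zone replicate 1. The intervals of Wdr43 (-0.27 to 0.03, around -0.12) and of the helicase gene Ddx10 (-0.30 to 0.07, around -0.11) also included 0. The intervals of Nol11, Wdr43 and Ddx10 hold the difference called for Nop14, whereas that of Nol6 ends short of it. Nol11 has 3 further probe sets, at -0.01, -0.23 and 0.44, which disagree among themselves.

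Genes of large subunit assembly factors held the largest differences. Of 15 tested, 13 were called higher in the light zone and 2 were not called, with a median of -0.40. Gnl3 encodes nucleostemin, a nucleolar GTPase that is abundant in proliferating and stem cells. It read 894.2, 970.4, 910.4 and 938.9 in light zone arrays and 430.7, 402.0, 382.2 and 396.5 in dark zone arrays. Each light zone array was more than 2-fold above each dark zone array, and the means of 928.5 ± 33.5 and 402.8 ± 20.4 (SD, n = 4 per zone) gave a difference of -1.21 (SE 0.06, limma adjusted p = 2.3e-08) or 2.31-fold, number 197 of 10547 genes by size. Rrp1b, a nucleolar protein that also regulates protein phosphatase 1, read 275.6, 346.8, 268.4 and 352.5 and 135.5, 158.0, 154.5 and 171.1. The light zone arrays fell into a higher pair (replicates 2 and 4) and a lower pair, both above the dark zone, and the difference was -1.0 (SE 0.10, limma adjusted p = 1.0e-05). Its 2 further probe sets gave -0.79 and -0.59. Noc2l, known both for subunit export and as an inhibitor of histone acetylation, read 367.1, 420.4, 405.4 and 415.7 in the light zone and 208.4, 223.9, 215.4 and 240.1 in the dark zone. The zones were far apart, at a difference of -0.86 (SE 0.07, limma adjusted p = 1.1e-06) or 1.81-fold. Noc3l, its binding partner, was at -0.36 (SE 0.08), and at -0.59 with both probe sets averaged.

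**Figure D3:**
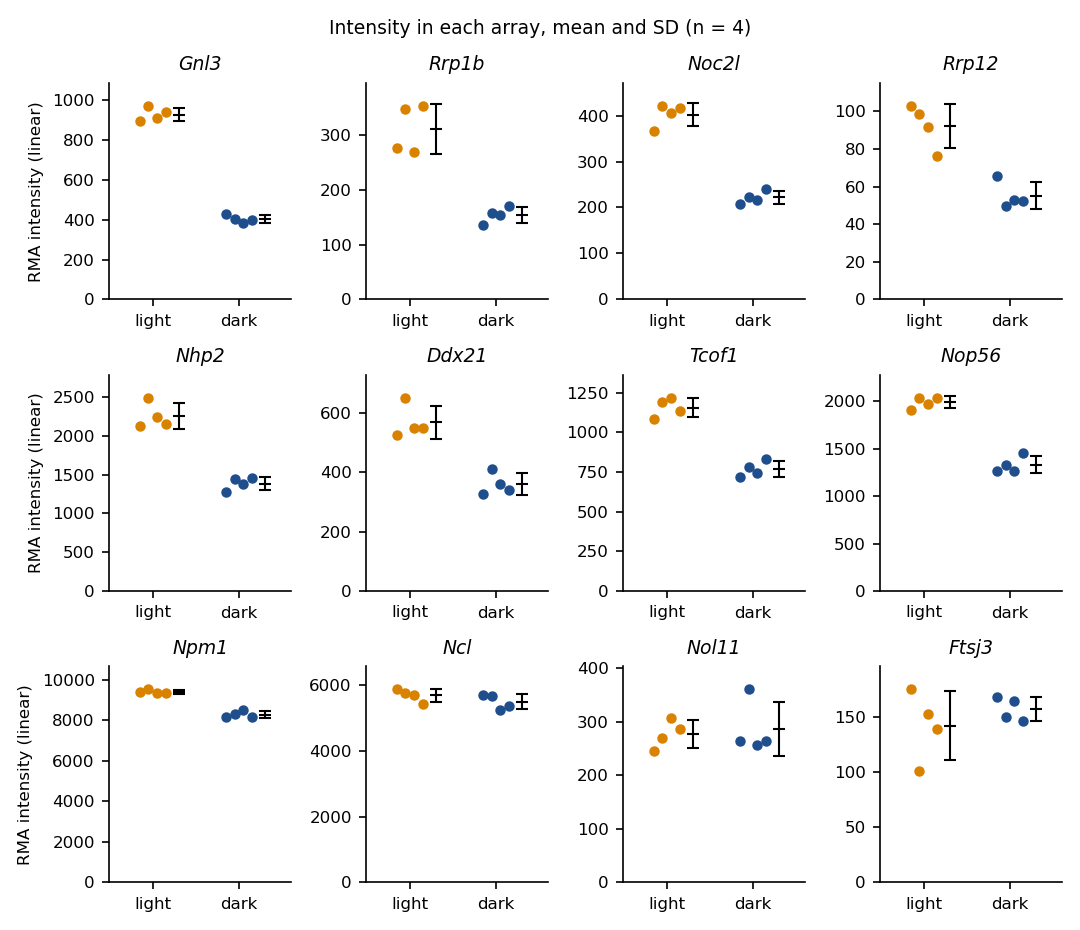
Linear intensity in each array for 12 of the genes (light zone orange, dark zone blue, vertical axes from 0), with the mean and SD of 4 arrays as a black bar beside each group. In the first 9 panels no dark zone array reaches the light zone, whereas the zones overlap for Ncl, Nol11 and Ftsj3.

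The PeBoW complex is formed by Pes1, Bop1 and Wdr12 and is needed to process large subunit RNA. The mRNA of all 3 subunit genes was called higher in the light zone. Pes1 was at -0.48 (SE 0.06), Wdr12 at -0.40 (SE 0.08) and Bop1 at -0.28 (SE 0.08). No dark zone array of any of the 3 reached the light zone. With probe sets averaged, Wdr12 fell to -0.15 and stayed just past the threshold (limma adjusted p = 0.049). That average includes a probe set below the filter, at 0.13, while the further one above the filter was at -0.17. Gnl2, the GTPase related to Gnl3, was at -0.58 (SE 0.14), with light zone replicate 2 as its highest array at 862.3, and at -0.38 with its probe sets averaged. Nop16 was at -0.53 (SE 0.06, or -0.29 averaged with a probe set below the filter) and Ppan at -0.40 (SE 0.06). Nop2, a methyltransferase of large subunit RNA, was at -0.35 (SE 0.07), and the helicase gene Ddx18 at -0.26 (SE 0.06). Rrs1, which helps to place the RNP of 5S RNA, was called at -0.28 (SE 0.09, limma adjusted p = 0.027) from overlapping arrays. The Rrs1 call was lost in each fit that left out 1 of light zone replicates 2 and 4 and dark zone replicate 1 (-0.25 to -0.22, limma adjusted p = 0.073 to 0.077). It was also lost with the probe sets averaged (-0.15, limma adjusted p = 0.082), since its second probe set was at -0.01.

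Both large subunit genes without a call were level or variable. Ftsj3, a methyltransferase of ribosomal RNA, read 175.7, 101.7, 153.4 and 139.8 in the light zone and 168.8, 150.8, 164.6 and 146.7 in the dark zone. The light zone spread from its highest to its lowest array covered all dark zone arrays, and the difference of 0.17 (interval -0.12 to 0.46, limma adjusted p = 0.33) was 0.02 without light zone replicate 2. Wdr74 was at -0.02 (interval -0.19 to 0.15, limma adjusted p = 0.86).

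Among the genes of abundant nucleolar proteins, Npm1 and Ncl had small differences and the helicase gene Ddx21 a larger one. Of the 3 genes, 2 were called, with a median of -0.18. Npm1, nucleophosmin, a chaperone of the granular part of the nucleolus, read 9386.2, 9536.3, 9365.6 and 9325.7 in light zone arrays and 8162.8, 8318.1, 8500.3 and 8144.5 in dark zone arrays. The arrays of a zone lay within a few percent of each other, so that a difference of -0.18 (SE 0.05, limma adjusted p = 0.014) or 1.14-fold was called without overlap, while its second probe set gave -0.09 and did not pass. Ncl, nucleolin, read 5881.0, 5772.0, 5705.5 and 5416.9 and 5712.8, 5659.5, 5249.3 and 5377.5. Its arrays overlapped, and the difference was -0.05 (interval -0.18 to 0.08, limma adjusted p = 0.52). The 4 dimmer probe sets of Ncl gave -0.05, -0.26 and -0.37 above the filter and 0.04 below it, and with all 5 averaged the gene was called at -0.14 (limma adjusted p = 0.04). Ddx21, an RNA helicase of ribosomal RNA transcription and processing, read 525.5, 650.6, 548.4 and 547.3 in the light zone and 324.9, 411.0, 359.3 and 341.3 in the dark zone. Its zones did not overlap, and the difference was -0.66 (SE 0.09, limma adjusted p = 7.9e-05) or 1.58-fold, and -0.42 with its probe sets averaged.

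Other probe sets of the same genes mostly pointed the same way. For 29 of the 41 genes the table holds 45 further probe sets of the same symbol, of which 39 passed the filter. Of these 39, 35 had a negative difference, with a median of -0.30, and 24 were called higher in the light zone when all probe sets with 1 symbol were fitted together. Another 2 were called in the other direction, 1 each of Nol11 (0.44, SE 0.11) and Ubtf (0.21, SE 0.07). The share called over all probe sets of that fit was not counted. In the separate fit of 10547 genes, 24.8% were called higher in the light zone and 19.1% higher in the dark zone. None of the 6 further probe sets below the filter was called. Among the 39 above the filter, the median gap to the brightest probe set of the gene was 0.22, and the largest was 0.48. Of the 41 probe sets that stand for a gene, 7 are of a type that can match several transcripts of a family (suffix s), as for Nop56, Fbl, Gar1, Nhp2, Polr1c, Tcof1 and Wdr43. That of Rrs1 is of a type that can cross-hybridise (suffix x).

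**Figure D4:**
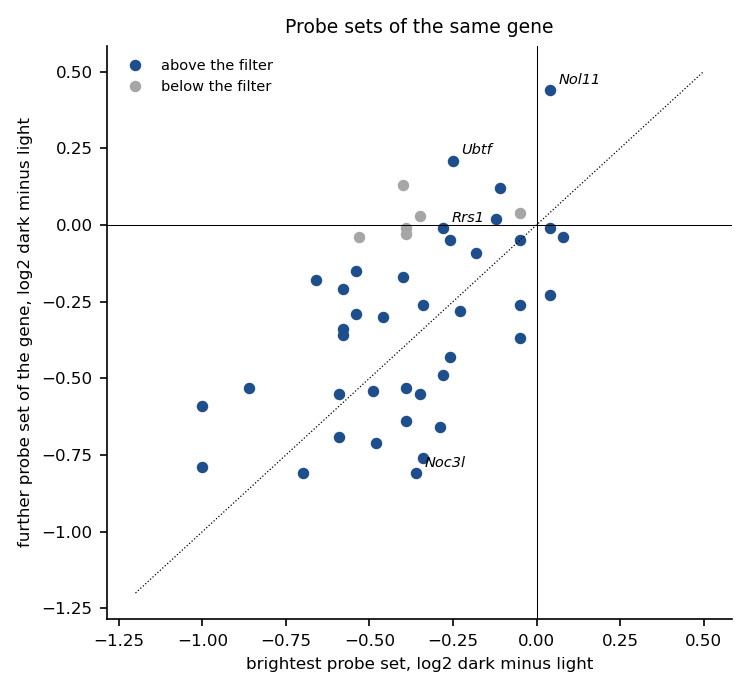
Log2 difference (dark minus light) of each further probe set (vertical axis) against that of the brightest probe set of the same gene (horizontal axis), with a dotted line of equality; blue points passed the filter and grey ones did not. Most blue points lie below 0 on both axes, and the named points Nol11 (0.44) and Ubtf (0.21) lie above 0.

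A wider set of 147 ribosome biogenesis genes outside the list was set down by role from general knowledge. Of 140 tested, 65 (46.4%) were called higher in the light zone and 9 (6.43%) higher in the dark, with a median of -0.14. All tested genes gave 24.8%, 19.1% and -0.01. The difference between this set and the 41 genes was not tested. Among other genes of RNA polymerase I, 8 of 14 (57.1%) were called towards the light zone and 1 (7.14%) towards the dark zone. The polymerase subunit gene Cd3eap (-0.60) and the shared subunit genes Polr2f (-0.42, not called at -0.14 with probe sets averaged) and Polr2h (-0.40) led, and the initiation factor gene Taf1b was at 0.47. Of 50 other processome and small subunit factors, 24 (48%) were called towards the light zone and 5 (10%) towards the dark zone. The former included the RNA acetyltransferase gene Nat10 (-0.68, or -0.39 averaged), the kinase gene Riok2 (-0.68, or -0.36 averaged) and the methyltransferase gene Dimt1 (-0.62). The acetylation adaptor gene Thumpd1 (0.48) and the helicase genes Ddx47 (0.42, not called at 0.13 averaged) and Ddx52 (0.31) went the other way.

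Of 47 other large subunit factors, 20 (42.6%) were called towards the light zone and 2 (4.26%) towards the dark zone. For all tested genes these shares were 24.8% and 19.1%. Tma16 (-0.91, or -0.44 averaged), the giant remodelling ATPase gene Mdn1 (-0.75, or -0.30 averaged) and Nifk (-0.54) had the largest differences towards the light zone. The cytoplasmic GTPase gene Lsg1 (0.59) and the helicase gene Ddx24 (0.36, or 0.23 averaged) were higher in the dark zone. Of 8 snoRNP assembly factors, 4 (50%) were called higher in the light zone, among them Naf1 (-0.65), Znhit6 (-0.59) and the cap methyltransferase gene Tgs1 (-0.54). None was called higher in the dark zone by limma, and 2 were at an unadjusted p under 0.05. Of 21 genes of the nuclear exosome and RNase MRP, which trim and cut the precursor, 9 (42.9%) were called towards the light zone and 1 (4.76%) towards the dark zone. RNase MRP subunit genes led, with Rpp40 at -0.69, Pop5 at -0.53 (-0.31 averaged) and Pop1 at -0.44 (-0.24 averaged). The 1 gene higher in the dark zone, Exosc8 (0.18, limma adjusted p = 0.027), had the opposite sign with probe sets averaged (-0.11, not called) and lost its call in each fit that left out 1 of light zone replicates 2 and 4 and dark zone replicates 1 and 2 (0.15 to 0.18, limma adjusted p = 0.053 to 0.076).

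The genes of the ribosome's own proteins that were measured here had medians near 0. They were taken by the pattern of their symbols, so related genes with like symbols may be included. Genes without a probe set that carries their symbol alone are absent. Of 47 tested genes of cytosolic ribosomal proteins, 12 (25.5%) were called higher in the light zone and 2 (4.26%) higher in the dark, with a median of -0.04. Over all tested genes these shares were 24.8% and 19.1%. Of the same 47 genes, 36 had a negative difference, and in 19 (40.4%, against 23.2% of all tested genes) all light zone arrays lay above all dark zone arrays. Of 76 genes of mitochondrial ribosomal proteins, 24 (31.6%) and 10 (13.2%) were called, with a median of -0.06. The corresponding values for the 41 ribosome biogenesis genes were 34 (82.9%), 0 and -0.36. For the 140 genes of the wider set they lay between, at 65 (46.4%), 9 (6.43%) and -0.14. These counts and medians are descriptions, and no test between the lists was run.

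**Figure D5:**
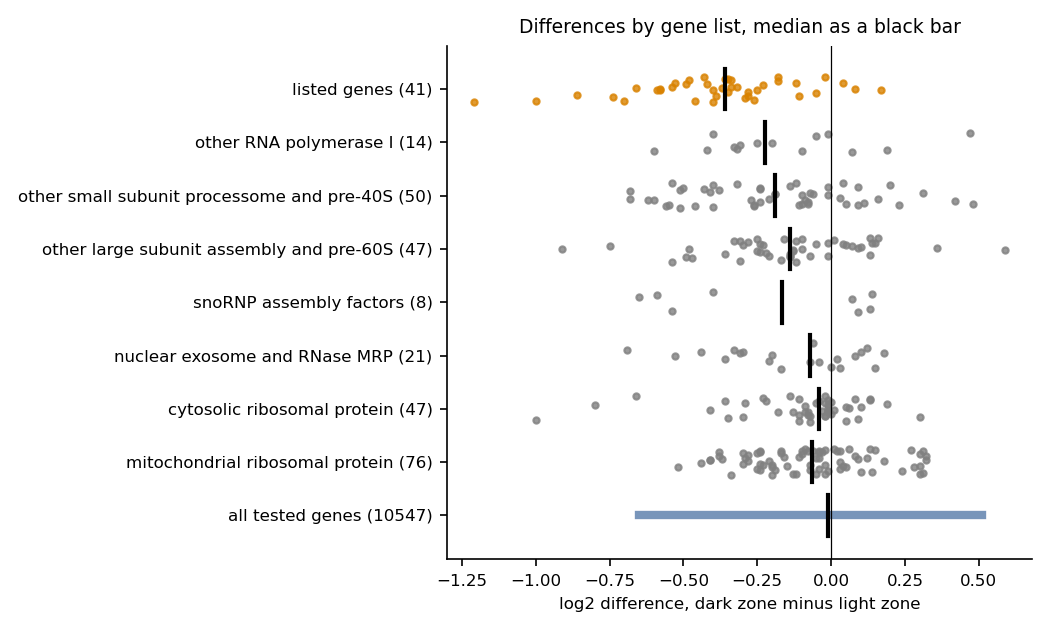
Log2 difference (dark minus light, horizontal axis) of every tested gene in each list, with the number of genes in brackets, the median as a black bar, and for all tested genes a blue bar from the 5th to the 95th percentile (-0.65 to 0.51). The median of the listed ribosome biogenesis genes (orange) is -0.36, that of the other biogenesis lists between -0.22 and -0.07, and those of the ribosomal protein lists -0.04 and -0.06.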

How the data were processed

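Affymetrix mouse expression arrays were read from the deposited table, which holds RMA intensity values on a linear scale for 45037 probe sets in 8 arrays. Per the submitters' processing notes the authors used RMA (background correction, quantile normalization and probe summary); its version is not given in the sources used here. Quantile normalization hides changes in total RNA per cell, and folds of dim genes are compressed. The log2 was taken without a pseudocount. Names came from the platform's annotation of each probe set, updated by gene identifier to RefSeq symbols (GRCm38.p6): 34945 carry 1 symbol. Each of 18193 genes was represented by its brightest probe set by mean log2 value, and the 10547 genes at or above the median of probe sets (intensity 27.8) were tested.

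Zones were compared with limma 3.58.1 in R 4.3.3 (lmFit, eBayes, two-sided), fitted over all tested genes. The fit was also run on simulated data with noise drawn separately for each gene and few genes changed, unlike these data. The p-values weigh each difference against the spread between these samples. Marker lists were compared between zones with an exact permutation test. The 43 genes, the lists and the tests were chosen with earlier results of these data known. All of the 43 genes are accounted for; every array is given for up to 3 genes per role with the largest differences and for uncalled genes with a positive difference, and up to 3 called genes per direction are named from each wider list. Alternatives varied the filter, probe set, normalization, variance model, array weights, replicate block, threshold and arrays. Averages over the probe sets of a gene include any that lie below the filter. Planned protein features were not used here, for lack of a protein table. Plots were made in Python 3.11.15 (matplotlib 3.10.9).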

Additional observations from a re-analysis of the deposited data

Results flagged for a closer look

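In 3 of the 82 groups of 4 arrays screened (41 genes in each zone), 1 array stood far from the other 3 relative to the range of its group; chance flags about 1 in 20 groups. Fbl read 1733.8 in dark zone replicate 1, below the other dark zone arrays at 1965.1 to 1972.3, and its difference was -0.41 without that array. Polr1c read 804.9 in light zone replicate 4, above the other light zone arrays at 725.9 to 734.2, and its difference was -0.20 without it. Nol11 read 361.0 in dark zone replicate 2, above the other dark zone arrays at 256.7 to 264.9, and its difference was -0.08 without it. The 3 arrays are different ones.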

How the results depend on the processing

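Across 18 alternatives, the number of the 41 genes called higher in the light zone was 29 to 34, and 0 were called higher in the dark zone in each of the 18. The low of 29 came with an adjusted p under 0.01. With each array left out in turn that number was 32 to 34 and the median -0.38 to -0.35, and among the wider set 58 to 63 genes were called towards the light zone and 7 to 10 towards the dark zone, with a median of -0.16 to -0.14. The median of the wider set was -0.11 with the probe sets of a gene averaged, beyond the spread between arrays. For 63 named genes, 1098 of 1125 values kept their side of the threshold. With the sign kept, 25 calls were lost and 1 was gained (Ncl). Among called genes the sign of Exosc8 turned (-0.11 with probe sets averaged), and that call was lost as well. The signs of Nol11 and Wdr74, which were not called, also turned in some alternatives, and Ddx10 came to 0.00 with probe sets averaged. Same-numbered arrays of the zones correlated at 0.06 to 0.24 in their deviations from the zone means, and each array correlated best with its own number except dark zone replicate 3, which correlated best with light zone replicate 1. As 1 pair was below 0.1 and no label ties the numbers together, they were not used as pairs. If they did mark pairs, the exact p of the marker lists could not go below 0.125. With the replicate block, 34 of the 41 genes were called with a median of -0.36, and 4787 genes in all against 4629. The filter at the 75th percentile leaves fewer genes tested, 37 of the 41. Dim genes such as Polr1b and Rrp12 are limited by signal over background.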
